A study of Homo sapiens with 3 samples.

Results

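The 9 genes described here are KRT7, KRT8, KRT18, KRT19, KRT80 and KRT81, which encode keratins, and EPCAM, CDH1 and CLDN4, which encode epithelial adhesion proteins. A peak of YTHDC1 chromatin occupancy was assigned to a gene when at least 1 of its bases lay in the gene or in the 1000 bases around it. By this rule, 6 of the 9 genes had a peak and 8 of the 6368 peaks were assigned to them, as 9 pairs of a gene and a peak. YTHDC1 is a nuclear reader of N6-methyladenosine (m6A), a methylated base of RNA, and was mapped on DNA by chromatin immunoprecipitation and sequencing (ChIP-seq). The 3 samples were replicates of 1 group, wild-type A549 cells, a cell line derived from a lung adenocarcinoma, without knockdown. The authors pooled the replicates before they called peaks on the human assembly hg19, so each peak has 1 value, with no spread between replicates and an unknown depth, and no input or IgG library was analysed here. All values below therefore describe 1 pooled peak set, no test between conditions could be made, and peak positions do not show whether a gene was expressed, so the epithelial label of the cells was not checked against marker expression.

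Keratins are the intermediate filament proteins of epithelial cells, and a filament forms from pairs of a type I and a type II keratin. KRT8 (type II) and KRT18 (type I) pair with each other in simple epithelia, KRT7 and KRT19 are further simple epithelial keratins of type II and type I, KRT80 is a type II keratin, and KRT81 is a type II keratin of hair. EPCAM encodes an epithelial cell adhesion molecule, CDH1 encodes E-cadherin of the adherens junction, and CLDN4 encodes the tight junction protein claudin-4.

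The sequences below show part of the DNA under 3 of the peaks. These peaks were chosen because they contain alternative starts on which the results turn. The printed stretches do not reach the starts at 53297432 (KRT8), 53343589 (KRT18) and 52627376 (KRT7). They were read from the GRCh37 assembly, the same build as hg19, 5′ to 3′ on the strand of the gene named, and each is up to 240 bases of a peak without annotated UTR bases. Capitals mark 5 motifs, which were searched on both strands. The GC box was searched for by the letters GGGCGG. The letters of the TATA box searched for were TATAAA. For the E-box, which zinc finger and helix-loop-helix factors recognise, they were CACCTG. The AP-1 site, recognised by FOS and JUN proteins, was taken as TGACTCA. The last motif, a core of the m6A consensus when transcribed into RNA, was GGACT. A motif on the opposite strand reads as its reverse complement, such as TGAGTCA for the AP-1 site. The KRT8 stretch is chr12:53297645-53297884, minus strand, in intron 1. The KRT18 stretch is chr12:53343667-53343893, plus strand, from the peak shared by KRT8 and KRT18. The KRT7 stretch is chr12:52627571-52627810, plus strand, in intron 1.
KRT8: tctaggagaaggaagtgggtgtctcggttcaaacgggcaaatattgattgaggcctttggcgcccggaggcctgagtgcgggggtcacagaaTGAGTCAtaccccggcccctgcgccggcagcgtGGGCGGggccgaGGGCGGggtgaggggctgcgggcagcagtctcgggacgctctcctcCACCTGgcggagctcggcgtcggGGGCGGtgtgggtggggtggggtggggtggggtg
KRT18: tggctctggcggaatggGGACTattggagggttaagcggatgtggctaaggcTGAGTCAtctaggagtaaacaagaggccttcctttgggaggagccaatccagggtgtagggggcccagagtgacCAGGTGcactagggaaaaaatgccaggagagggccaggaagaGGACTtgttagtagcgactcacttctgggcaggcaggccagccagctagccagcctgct
KRT7: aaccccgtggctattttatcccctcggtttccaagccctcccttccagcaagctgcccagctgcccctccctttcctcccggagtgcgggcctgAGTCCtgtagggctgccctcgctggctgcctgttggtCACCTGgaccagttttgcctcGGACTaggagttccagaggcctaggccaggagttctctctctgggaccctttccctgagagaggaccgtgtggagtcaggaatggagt

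KRT8 carried the peak with the highest value among these genes. It spanned chr12:53297050-53298480, 1431 bases, with a −log10 q of 3.08 (q-value 0.000827). Here and below, the value given for each peak is read as −log10 of the q-value of the authors' caller. This reading is inferred from the lowest value in the peak set. Among all 6368 peaks the KRT8 peak ranked 40 by width and 497 by −log10 q, so it stood out more by width than by its q-value. The peak lay on the minus-strand gene KRT8 (ENSG00000170421) between 380 and 1810 bases downstream of the canonical start at 53298860, and its midpoint fell in intron 1, which is 2585 bases long. It did not reach the canonical start itself, but contained the start of another KRT8 protein-coding transcript at 53297432. In the KRT8 sequence above, the AP-1 heptamer began 1068 bases downstream of the canonical start, and 3 GC boxes and 1 E-box followed it.

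KRT8 and KRT18 lie next to each other in a head-to-head arrangement and shared a further peak at chr12:53343460-53343893. It was 434 bases wide with a −log10 q of 1.07 (q-value 0.0845). Its width and −log10 q were lower than those of the other KRT8 peak. For KRT18 (ENSG00000111057, plus strand) the shared peak lay between 558 and 991 bases downstream of the canonical start at 53342902, with its midpoint in intron 1. A retained-intron transcript of KRT18 starts inside it, at 53343589. For KRT8 the same peak began 44600 bases upstream of the canonical start, and contained the starts of 8 longer KRT8 transcripts. Which of these genes the signal belongs to cannot be told apart. The AP-1 heptamer in the KRT18 sequence above began 817 bases downstream of the KRT18 canonical start.

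KRT18 had a separate peak just beyond its end. It spanned chr12:53346768-53347572, 805 bases, with a −log10 q of 1.81 (q-value 0.0154). It ran from 78 to 882 bases past the gene's last base, and no annotated gene overlapped it. The 3 peaks from KRT8 intron 1 to the far side of KRT18 thus fell within 50.5 kb, and both members of the KRT8 and KRT18 pair had a peak in intron 1.

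KRT7 (ENSG00000135480, plus strand) had a pair of peaks, both with the midpoint in intron 1, which is 1534 bases long. The first spanned chr12:52627304-52628078, 775 bases, with a −log10 q of 2.61 (q-value 0.00248), between 277 and 1051 bases downstream of the canonical start at 52627027. A KRT7 transcript without a defined coding sequence starts inside it, at 52627376. The second, chr12:52628357-52628842, was 486 bases wide with a −log10 q of 1.65 (q-value 0.0222) and contained no annotated start. Only 278 bases separated them, and the peak nearer to the start had the higher −log10 q and the larger width. In the KRT7 sequence above, an E-box stood 675 bases downstream of the canonical start.

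KRT80 (ENSG00000167767, minus strand) was the only one of the 9 genes with a peak over its canonical start. The peak, chr12:52585788-52586085, was 298 bases wide with a −log10 q of 1.09 (q-value 0.0822). It reached from 287 bases upstream of the start at 52585798 to 10 bases downstream, and overlapped the transcript by 11 bases. The peak also lay in intron 2 of the lncRNA LINC00592 on the opposite strand.

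KRT81 (ENSG00000205426, minus strand) had a single peak, which lay at the end of the gene. The peak, chr12:52678948-52680560, was the widest of the 8, at 1613 bases, with a −log10 q of 2.37 (q-value 0.00429), and ranked 28 by width among all peaks. Its nearer edge was 4758 bases from the single annotated KRT81 start, and its midpoint lay in the 3′ UTR of exon 9, the last exon. Of its bases, 749 lay beyond the end of KRT81, and the whole peak lay in intron 2 of KRT86, the neighbouring hair keratin on the plus strand. Whether it belongs to KRT81 or to KRT86 cannot be told apart.

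**Figure D1:**
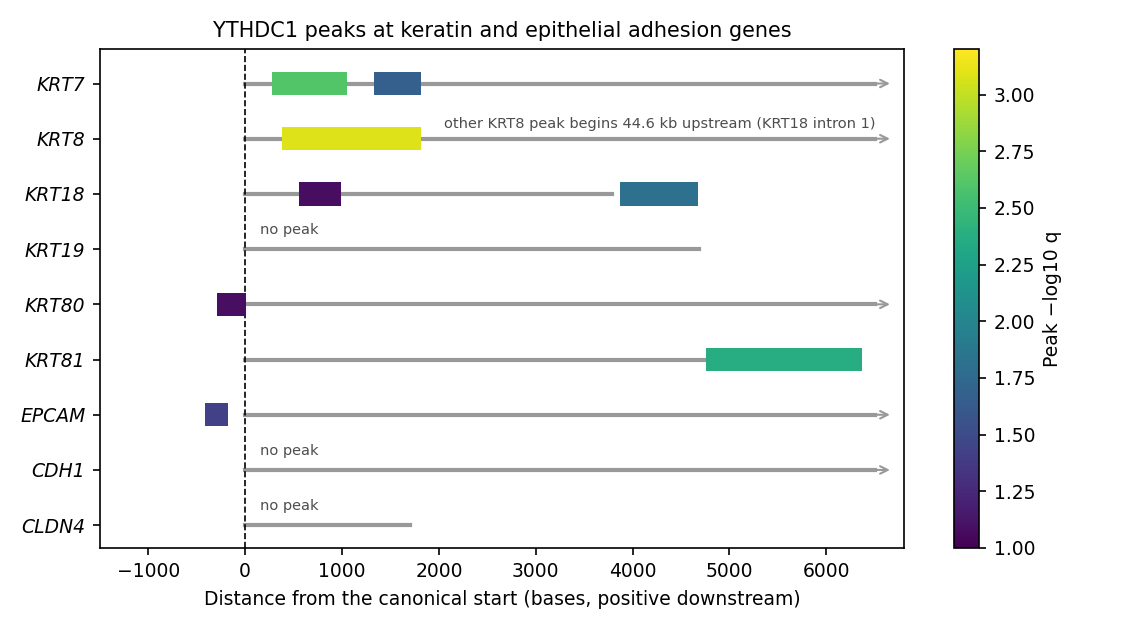
Peaks of the 9 genes by distance from the canonical start in bases, with positive values downstream. Grey lines are canonical transcripts (an arrow marks those that run on), and bars are peaks coloured by −log10 q. The bars nearest the start in KRT7, KRT8 and KRT18 begin 277 to 558 bases downstream of it, those of KRT80 and EPCAM lie at or upstream of it, and that of KRT81 lies at the gene's end.

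EPCAM (ENSG00000119888, plus strand) was the single adhesion gene of the 3 with a peak. The peak, chr2:47596033-47596268, was 236 bases wide with a −log10 q of 1.41 (q-value 0.0386), and only 11.5% of all peaks were narrower. It ended 182 bases upstream of the canonical start at 47596450, just inside the 200 bases within which a peak was counted at a start. Longer EPCAM transcripts that begin farther upstream run through this stretch.

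CDH1, CLDN4 and KRT19 had no assigned peak. For CDH1 (ENSG00000039068, chr16:68771195-68869440) the nearest peak lay 7.82 kb past the gene's end, in TANGO6, with a −log10 q of 1.08, and 106061 bases from the canonical start. For KRT19 (ENSG00000171345, chr17:39679869-39684560), a type I keratin of the same epithelia as KRT8, KRT18 and KRT7, it lay 51.8 kb upstream, with a −log10 q of 1.01 and no gene at it. For CLDN4 (ENSG00000189143, chr7:73213872-73247020) the nearest peak was 1996641 bases upstream, with a −log10 q of 1.51. The peak set holds only what passed the threshold the authors used, so occupancy below it could not be measured at these genes.

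Counted together, 6 of the 9 genes had an assigned peak, against 25.1% of the 20163 protein-coding genes. A peak overlapping 200 bases on either side of any annotated start was found at 5 of the 9 genes, KRT7, KRT8, KRT18, KRT80 and EPCAM, against 15.7% of protein-coding genes. KRT7, KRT8 and KRT18 had 2 peaks each, which 4.32% of protein-coding genes reached or exceeded. The 9 genes were not longer than others, with a median of 23.0 kb against 27.2 kb, but had a median of 7 annotated starts against 5. Per length, the density ranged from 3.31 peaks per 10 kb at KRT18 to 0.225 at EPCAM, among the 6 genes with a peak. These counts are descriptions, because the genes were chosen with results of these data known, and KRT8 and KRT18 were both counted for 1 shared peak.

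The start counts rest on alternative transcripts. With the canonical start alone, only EPCAM and KRT80 kept a peak at a start, against 11.7% of protein-coding genes. With the starts of protein-coding transcripts alone, KRT8 joined them, whereas the starts inside the KRT7 and KRT18 peaks belong to transcripts without a coding sequence or with a retained intron. Measured from the canonical start, 4 of the 9 pairs, the pair at KRT7 and those at KRT8 and KRT18, had the midpoint in intron 1, against 25.6% of the 6126 pairs of all protein-coding genes. The midpoint fell 200 to 1000 bases downstream of the canonical start in KRT18 and KRT7, a class with 22.7% of all pairs. KRT80 alone fell within 200 bases of it, a class with 19.6%.

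The peaks of these genes included 3 of at least 800 bases, at KRT8, KRT81 and the end of KRT18, whereas 5.03% of all peaks were that wide. The limit was set with the widths known: the KRT18 peak, at 805 bases, was just inside it and the first KRT7 peak, at 775 bases, just outside. The 8 widths had a median of 630.5 bases (range 236 to 1613), against 348 for all peaks. A −log10 q over 1.3, a q-value of about 0.05, was found for 6 of the 8, against 52.2% of all peaks. The exceptions were the KRT80 peak and the peak shared by KRT8 and KRT18, both at a start. The median −log10 q was 1.73 (range 1.07 to 3.08), against 1.33 for all peaks, and the highest value in the peak set was 160.5. Apart from the EPCAM peak, each stood higher among all peaks by width than by −log10 q, as at KRT8, where the intron 1 peak exceeded 99.4% of all peaks by width and 92.2% by −log10 q. Over all peaks, width and −log10 q had a Spearman correlation of 0.212 (n = 6368 peaks that share the same pooled libraries).

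**Figure D2:**
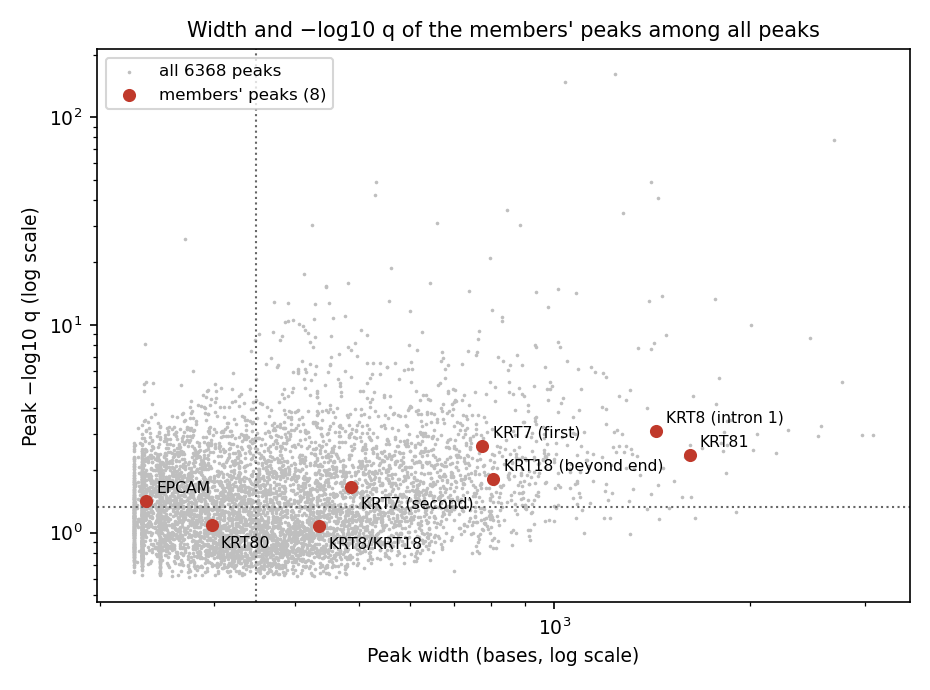
Width in bases against −log10 q, both on log scales, for all 6368 peaks (grey) and the 8 peaks of the keratin and adhesion genes (red), with dotted lines at the medians of all peaks, 348 bases and 1.33. KRT8 and KRT81 lie far to the right, at 1431 and 1613 bases, while EPCAM, at 236 bases, lies near the left edge.

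The median GC share of the peaks of these genes was 59.2%, close to the 61.2% of all peaks. The ratio of observed CpG dinucleotides to the number expected from the C and G content had a median of 0.212, against 0.690 over all peaks, 0.804 over the 2998 peaks at protein-coding starts and 0.403 over the 3370 other peaks. The EPCAM peak, the KRT8 intron 1 peak and the first KRT7 peak (0.441) were above the median of the other peaks, and within the quartiles of all peaks, 0.347 and 0.845. It was lowest at KRT80, at 0.137, although that peak covers the canonical start. It was highest at EPCAM, at 0.675, and at the KRT8 intron 1 peak, at 0.550. All 8 values were below the median of all peaks, and the 4 peaks at KRT80, in the second part of KRT7, at KRT8 and KRT18 together, and past KRT18 were between 0.137 and 0.173.

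**Figure D3:**
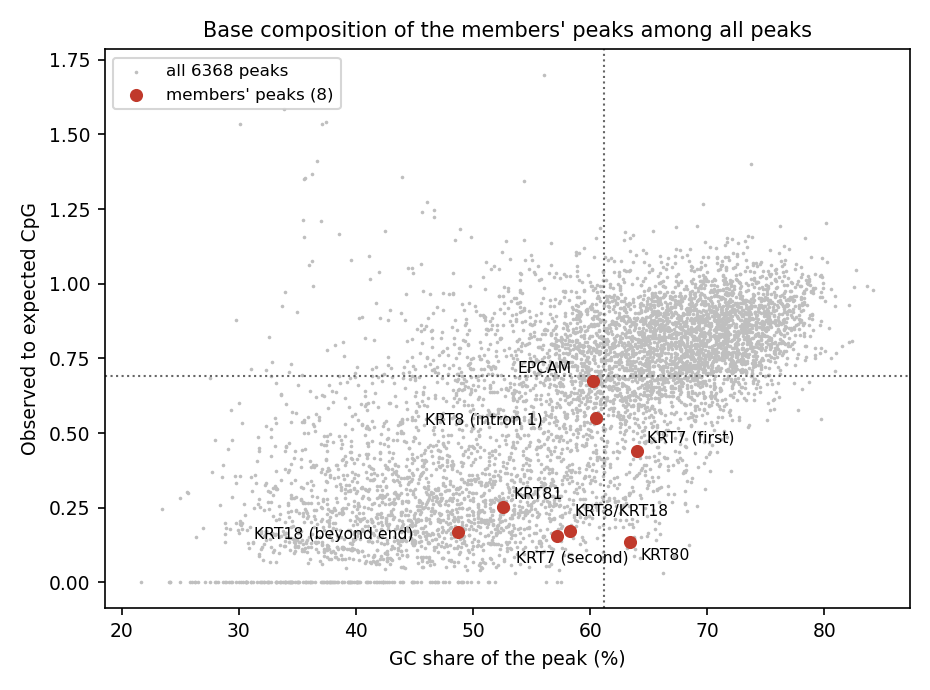
GC share in percent against the ratio of observed to expected CpG, for all 6368 peaks (grey) and the 8 peaks of the keratin and adhesion genes (red), with dotted lines at the medians of all peaks, 61.2% and 0.690. All 8 red points lie below the CpG median, EPCAM nearest to both medians, at 60.2% and 0.675, and KRT80 lowest by CpG, at 0.137.

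Motifs were counted in the 300 bases around each midpoint. An E-box was present in 6 of the 8 windows, all but those of KRT81 and the peak past KRT18, against 22.6% of the windows of all peaks. This share was much the same over all peaks at protein-coding starts (22.9%) and other peaks (22.3%). An AP-1 site was present in 2 windows, those of the KRT8 intron 1 peak and the peak shared by KRT8 and KRT18, against 8.40% of all windows, 3.07% of those at protein-coding starts and 13.1% of the others. Both of these peaks had the midpoint in intron 1. The window covers only part of a wide peak, however. Over its whole 1613 bases, the KRT81 peak at the gene's end also held 1 AP-1 site, and 1 E-box on each strand. A GC box was present in 3 windows (KRT80, KRT8 and EPCAM; 43.7% of all), a TATA box in 1 (EPCAM; 8.18%) and GGACT in 4 (KRT80, the first KRT7 peak, KRT81 and the shared peak; 43.1%). The TATA box match of EPCAM did not lie within its peak, which is narrower than the window, at 236 bases. Counted over whole peaks, TATAAA occurred 2 times in the KRT8 intron 1 peak and 1 time in the KRT81 peak. The GC box occurred 1 time on the strand of the gene and 3 times on the other in the first KRT7 peak. In the KRT81 peak it occurred 2 times. GGACT occurred 4 times on the strand of the gene and 2 times on the other in the KRT8 intron 1 peak. In the second KRT7 peak it occurred 1 time, on the other strand. In the KRT80 peak GGACT occurred 2 times, only on the strand opposite to the gene, and most of that peak lay upstream of the start. A match describes the DNA letters and not a bound factor or a methylated RNA.

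Keratin genes and pseudogenes resemble each other, so the uniqueness of these sequences was examined. In the first KRT7 peak 3.22% of the 31-base words occurred elsewhere in the assembly. They included words shared with KRT6A, KRT6B, KRT6C and KRT76, none of which had a peak, with KRT8 pseudogenes and with KRT8 itself, where 11 words matched chr12:53298449-53298489, which overlaps the end of the KRT8 intron 1 peak. In the KRT8 intron 1 peak 0.999% of the words were shared, mostly with KRT8 pseudogenes, and in the KRT81 peak 0.948%. None of the 8 peaks exceeded 10%, as 6.96% of all peaks did, and the highest was the peak past KRT18, at 5.16%.

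Most of these peaks lay at the ends of 1 gene cluster, where KRT80, KRT7, KRT81 and KRT8 lie. The type II keratin cluster, chr12:52561780-53344738 with 1000 bases on either side, spans 783 kb and 26 type II keratin genes. It held 9 peaks, or 11.5 per Mb, against 2.89 per Mb over chromosome 12. Most of these 9 are peaks of the genes described here, which were chosen with results of these data known. The density therefore partly follows from that choice and is only a description. By gene the cluster was not dense, as 5 of the 26 genes had a peak, 19.2% against 25.1% of protein-coding genes. The first 6 peaks of the cluster fell in 94.8 kb from KRT80 to KRT81. A stretch of 584 kb without a peak followed. It holds 21 type II keratin genes, including the epidermal keratin genes KRT1, KRT5 and KRT6A and the hair keratin genes KRT83 and KRT85. The last 3 peaks lay at the KRT8 end. Besides the peaks of KRT80, KRT7, KRT81, KRT8 and KRT18, the cluster held 1 in LINC00592 (624 bases, −log10 q 1.93), 1 at KRT86 and the pseudogene KRT87P (295 bases, −log10 q 2.64) and 1 between genes (328 bases, −log10 q 1.37). The type I cluster on chromosome 17, chr17:38853243-39782094, spans 929 kb and held 3 peaks for 27 keratin genes, or 3.23 per Mb, against 6.32 per Mb over that chromosome. KRT19 lies in it without a peak, and KRT18, the type I partner of KRT8, lies outside it on chromosome 12.

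**Figure D4:**
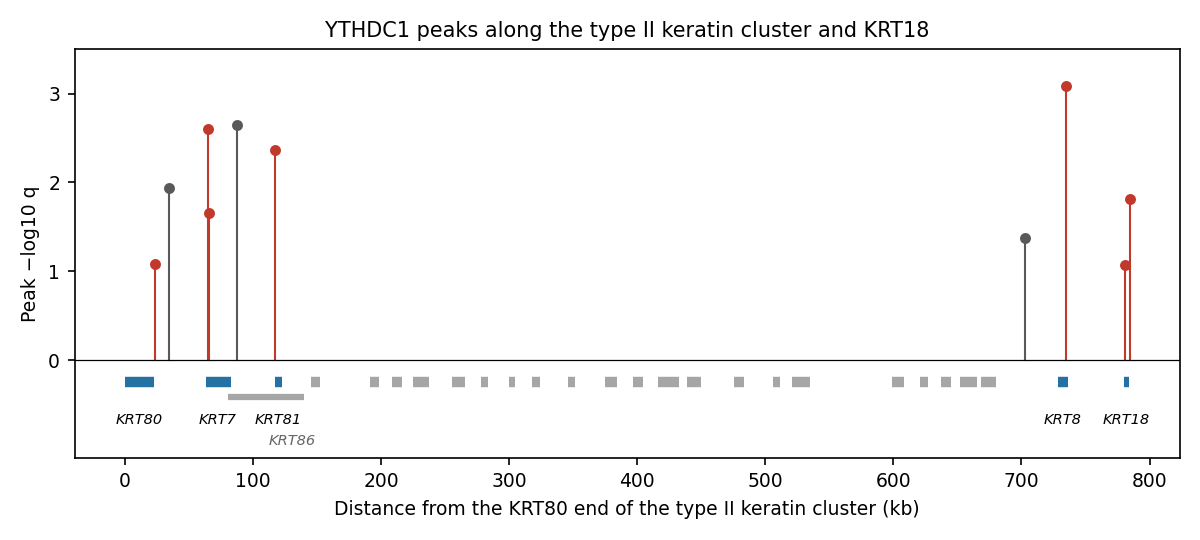
Peaks along the type II keratin cluster and KRT18, by distance in kb from the KRT80 end, with −log10 q as height. Red stems are peaks of the named genes and dark grey stems other peaks. Bars under the axis are genes, blue for KRT80, KRT7, KRT81, KRT8 and KRT18 (the canonical transcripts of KRT8 and KRT18) and grey for the others. The 584 kb between the left and right groups hold 21 keratin genes and no peak.

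Peaks in related gene lists were counted by the same rules. Of the 26 type II keratins, 5 had a peak (KRT7, KRT8, KRT80, KRT81 and KRT86), and of the 28 type I keratins 3 did, KRT18, KRT27 (−log10 q 1.14) and KRT10 (0.944). As shares, these are 19.2% and 10.7%, both below the 25.1% of protein-coding genes, so the count among the 6 keratins described here, 5 of 6, was not seen over keratin genes at large. Keratin genes are short, with medians of 8.63 kb in type II and 5.84 kb in type I.

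In no list of junction genes did the share with any peak exceed the 25.1% of protein-coding genes. The share with a peak at a start was 16.7% for other tight junction genes and 15.8% for cadherins, catenins and nectins. It was 20.0% for epithelial surface genes and 0 for claudins and desmosome genes, against 15.7% of protein-coding genes. Of 21 claudins, 1 had a peak (4.76%), CLDN20 with a −log10 q of 1.14, and none had one at a start. Of 12 other tight junction genes, 3 had a peak (25.0%), among them TJP1 (1.45) and PARD3 (1.09). Of 19 cadherins, catenins and nectins, 3 had a peak (15.8%), all at a start: CTNND1 (1.58) and CTNNA1 (1.34), which encode catenins that bind E-cadherin or its complex, and NECTIN1 (1.23). Of 14 desmosome genes, 2 had a peak (14.3%), PPL (1.27) and PKP3 (0.933). Of 10 genes of epithelial surface proteins, 2 had a peak (20.0%), EPCAM itself and SPINT2, which encodes a protease inhibitor and had its highest −log10 q, 3.80, away from an annotated start. CDH1 lacked a peak while CTNND1 and CTNNA1 had one. The share in the list of cadherins, catenins and nectins, 15.8%, was below that of protein-coding genes. The contrast thus describes single genes and is not a result about the partners of CDH1.

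Regulators of the epithelial state were counted too. Of 12 epithelial regulators, 5 had a peak, with the highest values at ESRP2 (2.12), a splicing regulator, GRHL2 (1.70) and EHF (1.26), but only KLF4 had one at a start. Of 11 mesenchymal regulators and markers, also 5 had a peak, with the highest values at COL1A1 (1.33), TWIST2 (0.923) and SNAI2 (0.849), and only SNAI2 had one at a start. The shares at a start, 8.33% and 9.09%, were below the 15.7% of protein-coding genes. The shares with any peak, 41.7% and 45.5%, were above 25.1%, in lists with median lengths of 46.4 kb and 75.6 kb against 27.2 kb for protein-coding genes, and the part of gene length in this was not tested.

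**Figure D5:**
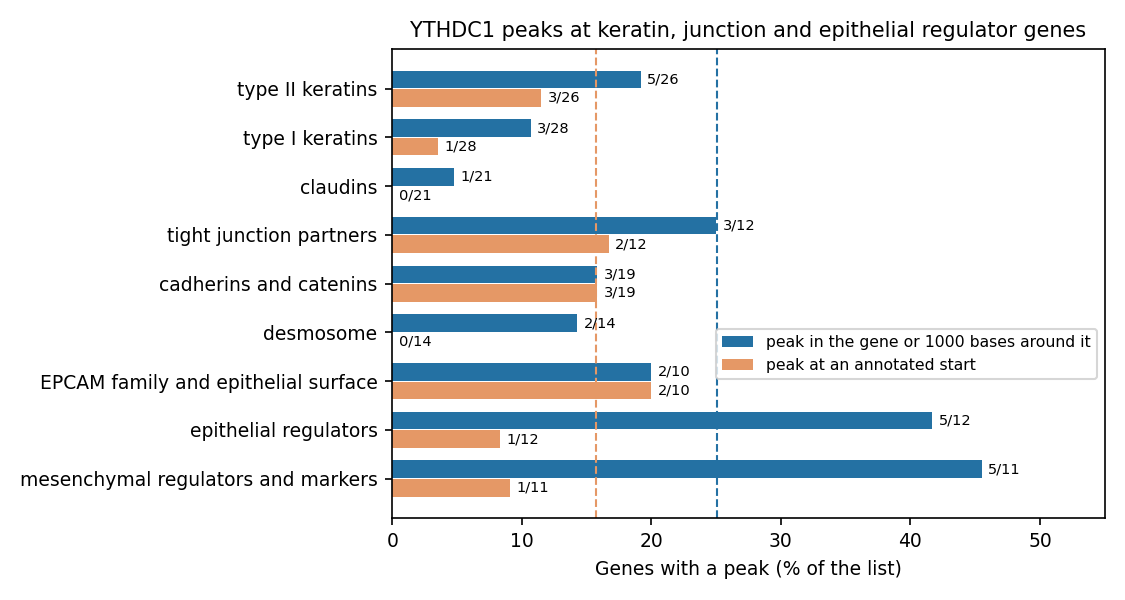
Share of genes with a peak in the gene or 1000 bases around it (blue) and at an annotated start (orange), in percent of the genes of each list, with dashed lines at 25.1% and 15.7%, the shares of protein-coding genes. Claudins are lowest, with 1 of 21 genes, and the epithelial and mesenchymal lists are highest by any peak, with 5 of 12 and 5 of 11, but low at starts.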

How the data were processed

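YTHDC1 ChIP-seq was performed in 3 replicates of wild-type A549 cells. Reads were aligned to hg19 and, after the authors had combined the alignments of all replicates, MACS2 was run in its broad mode (q-value setting 0.1, broad cutoff 0.25). Their methods name Bowtie2 as the aligner, the submitters' processing notes name BWA. A control library for the calling is not given in the sources used here. The deposited file gives a position, a name and 1 value per peak. This value is read as −log10 of the q-value given by the authors' caller, since the lowest, 0.610, lies just above 0.602, −log10 of the broad cutoff. The peak names point to a merging step that is not described in the sources used here. Because of the pooling, depth per sample is unknown and there is no spread between replicates. The labels do not state if separate cultures were used.

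Peaks were joined to the genes of GENCODE release 44 mapped to GRCh37, by an overlap of at least 1 base with the gene and 1000 bases around it, or with 200 bases on either side of any annotated transcript start. The canonical start is that of the Ensembl canonical transcript. Distances follow the gene's strand, coordinates count from 1, and 20163 protein-coding genes gave the background shares. Sequence was read from GRCh37. Repeated sequence was the share of 31-base words found more than once in the assembly. The join was tested on simulated data. Python 3.11.15, numpy 2.4.6, pandas 2.3.3, scipy 1.17.1, numba 0.67.0 and matplotlib 3.10.9 were used. The genes and lists were chosen with earlier results of these data known, so counts are given with no test. Named were all 9 genes with every gene that shares their peaks, and for each list up to 3 other genes with the highest −log10 q. KLF4, the genes in the stretch of the cluster without a peak and the genes that share sequence with KRT7 were named after their values were seen. Alternatives were other flanks, start windows, start sets, peak thresholds and overlap rules. Some items are withheld for evaluations and are not reported here.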

Additional observations from a re-analysis of the deposited data

How the results depend on the processing

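The count of genes with an assigned peak, 6 of 9, was 5 or 6 under every alternative to which it was subject (other flanks, stricter peaks, midpoint in place of overlap, coding transcripts), and the assigned peaks numbered 6 to 9. Their median width stayed between 486 and 790 bases and their median −log10 q between 1.65 and 2.09. The count at a start was less firm. From 5 of 9 genes it fell to 3 with peaks of −log10 q over 1.3, 3 with peaks above the median −log10 q, 3 with the peak midpoint in the window, 3 with starts of coding transcripts and 2 with the canonical start, and stayed at 5 with a window of 500 bases. From 5, the peaks at a start fell to 3 with −log10 q over 1.3, 3 with peaks above the median, 2 by midpoint and 2 by the canonical start. The share of protein-coding genes with a peak was 21.5% with no flank, 28.1% with 5000 bases, 14.3% with −log10 q over 1.3, 13.9% with peaks above the median and 24.4% with coding transcripts. The share at a start was 8.96% with −log10 q over 1.3, 8.63% with peaks above the median, 10.8% by midpoint, 18.6% with 500 bases, 11.7% with the canonical start and 14.7% with coding transcripts. These shifts follow from fewer or more peaks, bases or starts being counted. No replicate could be left out, and no paired analysis was possible because the replicates were pooled into 1 peak set of 1 group.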
